A study of Mus musculus with 2 samples.

Results

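The surface identity genes of plasmacytoid dendritic cells (pDCs) were followed in bone marrow pDCs with and without the transcription factor Runx2. The set holds 10 genes, Siglech, Bst2, Ptprs, Cadm1, Lag3, Lair1, Pacsin1, Tspan13, Atp1b1 and Ly6d, taken by symbol from 19938 named mouse genes. Each was read by the brightest probe set that the platform annotation gives to that gene alone, and all 10 had exactly 1 such probe set. RNA came from Runx2-/- pDCs of mice reconstituted with Runx2-/- fetal liver and from pDCs of mice reconstituted with wild-type fetal liver. Both kinds of chimera were sampled 2 months after reconstitution. The Runx2 loss in this design covers the whole donor blood system, because the chimeras carry it in the transplanted cells and not under a pDC-specific Cre, while the hosts' other tissues are not described by the labels. The labels do not give the hosts' strain, their age, the number of mice behind each sample or the share of host blood cells left. The sort took CD11b-negative cells positive for BST2 and B220. Starting from 250 ng of total RNA, each sample was hybridised to an Affymetrix Mouse Gene 1.0 ST array.

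There was 1 array per genotype. No value below has a replicate, a standard error or a p-value, and a difference between the arrays cannot be told apart from a difference between individual mice, pools or hybridisations. Levels are log2 of the deposited intensities, and a difference is the log2 level on the Runx2-deficient array minus that on the wild-type array. The median intensity was 181.7 units on the Runx2-deficient array, against 182.9 on the wild-type array, over 35556 probe sets. Probe sets differ in how brightly they bind, so levels of different genes are not compared as amounts of RNA. In RNA of a sorted population, fewer cells of a type and less RNA per cell cannot be told apart. Runx2 itself was not analysed here, so the genotype was not checked on the targeted gene.

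pDCs are dendritic cells that sense nucleic acids in endosomes and answer viruses with large amounts of type I interferon. In the mouse they are recognised by a set of surface proteins, several of which are inhibitory or adaptor-coupled receptors that tune that response. The set studied here mixes receptors (Siglech, Bst2, Ptprs, Lag3, Lair1), an adhesion molecule (Cadm1), membrane organisers and transporters (Tspan13, Atp1b1), a lipid-anchored marker (Ly6d) and 1 gene, Pacsin1, whose product sits at the inner face of the membrane rather than on the surface. The E protein TCF4 (E2-2) maintains pDC identity and binds E-boxes, while Runx factors bind a short core sequence.

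Siglech and Lair1 had nearly the same level on both arrays, Tspan13 was slightly lower, and Bst2, Ly6d, Atp1b1, Pacsin1 and Lag3 were lower by less than 2-fold. Ptprs and Cadm1 were the 2 of 10 genes at least 2-fold lower in Runx2-deficient pDCs, and 0 of 10 were at least 2-fold higher. A brightness filter kept genes that reached an array's median level over named genes on either array, and all 10 passed. Among the 10337 genes that passed it, 1.17% were at least 2-fold lower and 0.793% at least 2-fold higher. At a 1.5-fold threshold Lag3 joined the others, giving 3 of 10 genes lower and 0 of 10 higher, while 3.86% and 3.02% of the filtered genes were lower and higher by that much. The difference was below 0 for 9 of 10 genes, counting Lair1 at -0.0028, whose sign depended on the scaling, while 51.9% of the filtered genes were below 0. The median difference of the 10 genes was -0.49, and that of all named genes was -0.03. The 10 genes were put together with earlier results on these arrays known, so these counts describe the set and do not single it out.

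**Figure D1:**
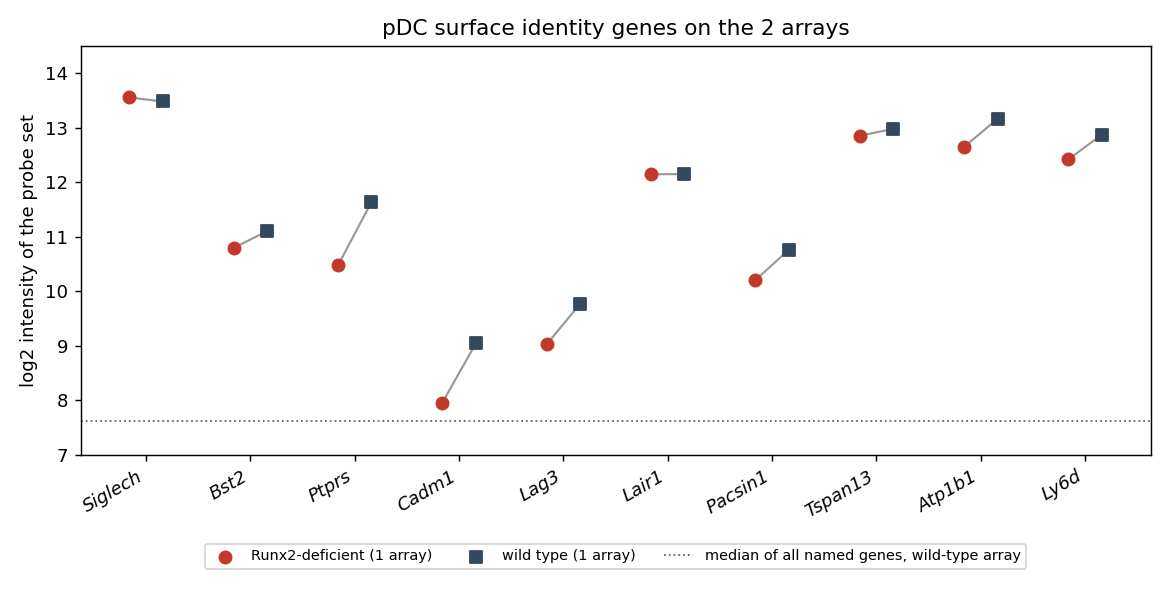
Log2 intensity of the 10 pDC surface identity genes, with the Runx2-deficient array at left (red circles) and the wild-type array at right (dark squares) of each pair, 1 array each, so that no error bars can be drawn. The dotted line is the median of all named genes on the wild-type array (7.61). The steepest pairs are Ptprs and Cadm1, and the flattest are Lair1 and Siglech.

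The sorted cell type was checked on its markers. Siglech and the transcription factor genes Tcf4 and Irf8, which pDCs express, were well past the filter on both arrays. Genes of other blood cells also gave signal and differed between the arrays, not all in the same direction. In the neutrophil and granulocyte precursor list 14 of 16 genes were lower by 2-fold or more, with summed intensities of 2939 units in Runx2-deficient pDCs, against 19182 in wild-type pDCs. In the erythroid list 5 of 11 were at least 2-fold lower, with sums of 6468 units in Runx2-deficient pDCs, against 8166 in wild-type pDCs. Without Tfrc, the transferrin receptor gene of many dividing cells and the 1 member that was higher, these sums were 1644 units in Runx2-deficient pDCs, against 4603 in wild-type pDCs. In the platelet list 2 of 7 were at least 2-fold lower, with sums of 1350 units in Runx2-deficient pDCs, against 6719 in wild-type pDCs. Without the platelet chemokine gene Ppbp they were 1194 units in Runx2-deficient pDCs, against 1881 in wild-type pDCs. Both omissions were chosen after the values were seen. Monocyte and macrophage genes had 2 of 11 at least 2-fold lower, and sums of 3809 units in Runx2-deficient pDCs, against 5910 in wild-type pDCs. The 2 were Lyz2 and Ccr2. Lyz2 had 480 units in Runx2-deficient pDCs, against 1440 in wild-type pDCs, and Ccr2 had 302, against 1415. In the same list 5 of 11 were above 0, with C1qb at 0.89 and Csf1r at 0.64. In the haematopoietic progenitor list 0 of 10 genes were at least 2-fold lower and 1, Kit, was at least 2-fold higher (1.55). That list summed to 6337 units in Runx2-deficient pDCs, against 5455 in wild-type pDCs, with 5 genes below 0 and 5 above. The plasma cell list had 0 of 6 genes 2-fold apart, with Sdc1 the highest at 0.91. Its sums were 10489 units in Runx2-deficient pDCs, against 10349 in wild-type pDCs. Neutrophils and monocytes carry CD11b, by which the gate excluded cells. The CD11b gene Itgam was at 7.29 in Runx2-deficient pDCs, against 7.58 in wild-type pDCs. The filter levels were 7.54 and 7.61, so Itgam was below the filter on both arrays, only just on the wild-type array. The part of any of these cells in the differences of the surface genes was not tested.

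**Figure D2:**
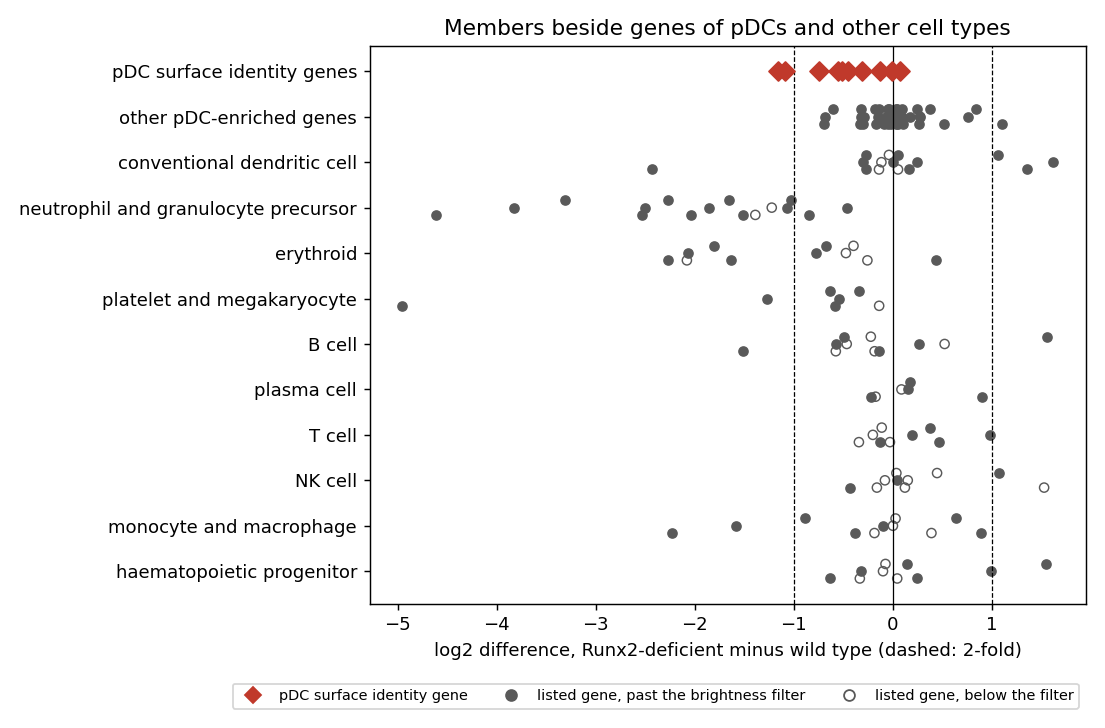
Log2 difference, Runx2-deficient minus wild type, of the 10 pDC surface identity genes (red diamonds, top row) above other pDC-enriched genes and markers of other cell types (circles, filled where past the brightness filter, open where below it), with dashed lines at 2-fold. The surface genes run from -1.16 to 0.07, the neutrophil and granulocyte precursor row has the lowest median (-1.75), and the lowest single point is the platelet gene Ppbp (-4.96).

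The stretches before the start sites of Siglech, Ptprs and Pacsin1 are shown. Among the stretches found, those of Siglech and Pacsin1 were the 2 with the RUNX core sequence TGTGGT. Ptprs is the gene with the largest difference. Sequences are from RefSeq on GRCm38.p6 and run 5′ to 3′ on the gene's strand over the 250 bases before the annotated start. Capitals mark TGTGGT, the form of the RUNX core searched here, on either strand (ACCACA on the opposite strand). They also mark CANNTG, the E-box, which reads as the same pattern on both strands. Other spellings of the RUNX core were not searched and are neither marked nor counted. No match of one motif overlapped a match of the other in these windows. Siglech is at chr7:55767934-55768183 on the plus strand, Ptprs at chr17:56476481-56476730 on the minus strand, and Pacsin1 at chr17:27684989-27685238 on the plus strand.
Siglech: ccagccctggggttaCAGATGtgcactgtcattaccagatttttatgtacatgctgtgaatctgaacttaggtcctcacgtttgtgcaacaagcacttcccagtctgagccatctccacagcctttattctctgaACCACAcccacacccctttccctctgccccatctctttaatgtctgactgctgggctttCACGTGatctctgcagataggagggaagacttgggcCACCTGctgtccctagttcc
Ptprs: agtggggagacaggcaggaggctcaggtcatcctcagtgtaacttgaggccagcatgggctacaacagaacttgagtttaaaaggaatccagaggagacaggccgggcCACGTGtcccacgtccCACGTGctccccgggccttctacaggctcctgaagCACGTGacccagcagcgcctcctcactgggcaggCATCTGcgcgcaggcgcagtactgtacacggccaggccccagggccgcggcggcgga
Pacsin1: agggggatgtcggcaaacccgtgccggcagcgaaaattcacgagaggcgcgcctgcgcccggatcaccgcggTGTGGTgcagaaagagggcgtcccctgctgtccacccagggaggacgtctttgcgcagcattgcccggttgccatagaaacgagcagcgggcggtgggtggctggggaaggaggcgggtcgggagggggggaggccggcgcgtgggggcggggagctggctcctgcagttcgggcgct
Windows were found for 7 of the 10 genes, those of Cadm1, Lag3 and Ly6d not being among the sequences used here. TGTGGT lay in the windows of 2 of these 7 genes, Siglech and Pacsin1. It lay in those of 15.9% of 27025 mouse genes (14.0% of their 32851 windows). An E-box lay in the windows of 4 of the 7, Siglech, Ptprs, Bst2 and Lair1, and in those of 69.3% of all genes (66.2% of windows). Ptprs held 4 E-boxes, 3 of them CACGTG, in the window shown and 0 in the window of its other annotated start. These matches are letters in a window and not measured binding sites. The genes with TGTGGT differed by 0.07 (Siglech) and -0.56 (Pacsin1), and Ptprs had no TGTGGT in either window. A link between these matches and the differences was not tested.

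Among the receptors, Siglech, a sialic acid-binding lectin of mouse pDCs that signals through the adaptor DAP12, was at 13.55 on the Runx2-deficient array, against 13.48 on the wild-type array. In intensity units this is 12028 in Runx2-deficient pDCs, against 11436 in wild-type pDCs, a ratio of 1.05. Of the 10 genes it was the only one with a difference above 0, and 62.8% of filtered genes had a difference at or below its 0.07. Tyrobp, which encodes DAP12, was at 12.47 in Runx2-deficient pDCs, against 13.04 in wild-type pDCs, a difference of -0.57. The kinase gene Syk, which acts downstream of such adaptors, differed by -0.26, and Fcer1g, another adaptor of this kind, by -0.09.

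Relatives of Siglech were within 2-fold on both arrays with 1 exception. Of 7 other genes of sialic acid-binding lectins, 0 were at least 2-fold lower and 1 was at least 2-fold higher. That gene was Cd22, an inhibitory receptor best known from B cells, with 755 intensity units in Runx2-deficient pDCs, against 257 in wild-type pDCs, a difference of 1.56. Siglecg, another inhibitory lectin of B cells, differed by 0.17 and Cd33, a myeloid one, by -0.02.

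Bst2 encodes tetherin, the protein that the sorting antibody to BST2 binds and that holds budding virions on the cell surface. It was at 10.79 on the Runx2-deficient array, against 11.10 on the wild-type array, a difference of -0.31 and 1.24-fold lower. Of the filtered genes, 14.6% had a difference at or below this. Since the sort required BST2 protein, the cells of both samples were selected on the product of this gene, and the transcript value is that of selected cells. Ptprc, the gene of the B220 protein and also part of the gate, differed by 0.13. Itgam, the gene of CD11b, by which cells were excluded, was below the filter on both arrays, at 7.29 in Runx2-deficient pDCs, against 7.58 in wild-type pDCs. Itgax, the gene of CD11c, which was stained but is not in the stated gate, was the only one of the 4 stained markers 2-fold apart, with 379 intensity units in Runx2-deficient pDCs, against 2047 in wild-type pDCs, a difference of -2.43.

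Ptprs encodes the receptor phosphatase sigma, which binds heparan sulfate and restrains pDC activation in mouse and human. Its intensity was 1422 units in Runx2-deficient pDCs, against 3173 units in wild-type pDCs, 10.47 and 11.63 in log2. This is 2.23-fold lower and the largest difference of the set, -1.16. Both levels lay well above the brightness filter, and 91 of the 10337 filtered genes (0.88%) had a difference at or below it. Ptprf, the gene of the related phosphatase LAR, was also lower, at 9.80 in Runx2-deficient pDCs, against 10.48 in wild-type pDCs, a difference of -0.68. The third gene of this phosphatase subfamily, Ptprd, was below the filter on both arrays and differed by -0.09.

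Lag3 encodes an inhibitory receptor related to CD4 that binds MHC class II and is carried by mouse pDCs. It had 521 intensity units in Runx2-deficient pDCs, against 871 in wild-type pDCs, a difference of -0.74 and 1.67-fold lower. Of the filtered genes, 2.33% had a difference at or below this. Genes of its ligands were measured beside it, with the invariant chain gene Cd74, not itself a ligand gene, counted among them. Of these, 6 of 7 were below 0 with a median of -0.43. H2-Ab1, a class II chain, was 1 of 7 at least 2-fold lower, at 11.80 in Runx2-deficient pDCs, against 12.80 in wild-type pDCs. The other class II chain genes H2-Eb1 and H2-Aa differed by -0.55 and -0.34, and Cd74 by -0.28. The galectin gene Lgals3 differed by -0.57.

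Activated T cells and NK cells also express Lag3, and genes of those cells were set beside it. In the T cell list 0 of 9 genes were at least 2-fold lower and 0 higher, with a summed intensity of 2962 units on the Runx2-deficient array, against 2357 on the wild-type array. Cd3d, Cd3e and Cd3g, which define T cells, were below the filter on both arrays. The 5 list members past the filter had a median difference of 0.37, led by the adaptor gene Lat at 0.98, just short of 2-fold, with Cd6 at 0.47, Cd28 at 0.37, Cd5 at 0.20 and Bcl11b at -0.12. In the NK list 0 of 10 genes were at least 2-fold lower and 2 higher, beside 0.647% and 0.436% of all named genes. The higher ones were Klra8 (1.53), below the filter on both arrays, and Klrk1 (1.08). The sums were 2997 units in Runx2-deficient pDCs, against 2771 in wild-type pDCs, and 3 of the 10 genes passed the filter. Klrd1 alone had 1796 units in Runx2-deficient pDCs, against 1748 in wild-type pDCs.

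Lair1 encodes an inhibitory receptor for collagen that recruits SHP phosphatases and is shared by many leukocytes. It was at 12.15 on both arrays, with 4530 intensity units in Runx2-deficient pDCs, against 4538 in wild-type pDCs. Its difference of -0.0028 was the one nearest 0 in the set, and its sign turned when the differences were centred on the median of all named genes (0.03) or corrected for their trend with intensity (0.0091). The genes of its phosphatases lay close to 0 as well. Ptpn6 was at 11.80 in Runx2-deficient pDCs, against 11.81 in wild-type pDCs, and Ptpn11 differed by 0.08.

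**Figure D3:**
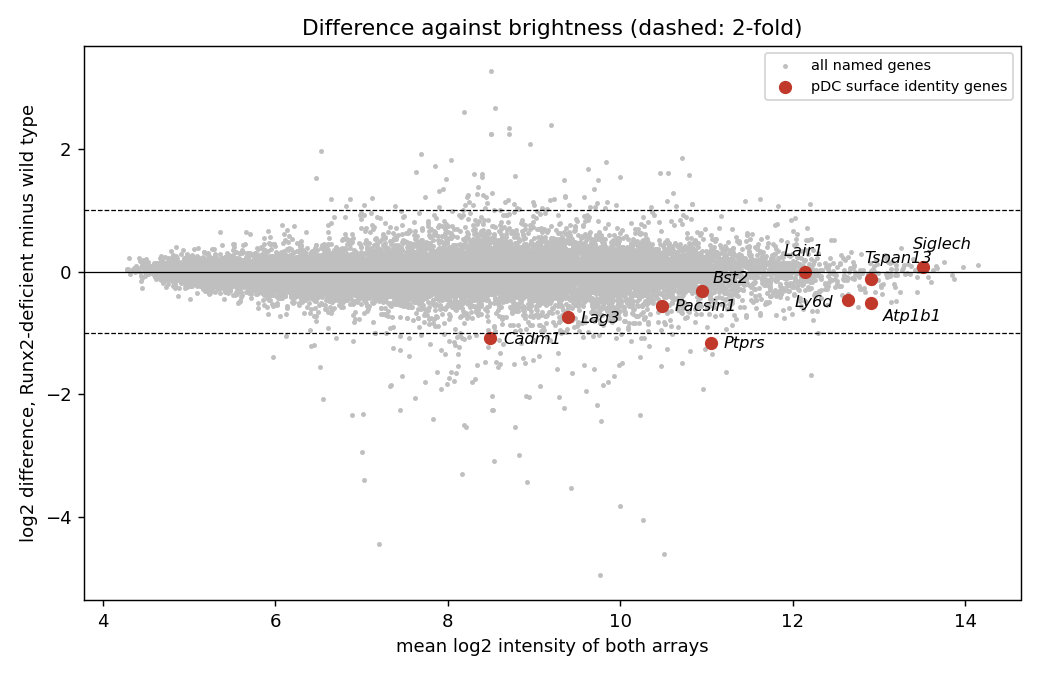
Log2 difference, Runx2-deficient minus wild type, against the mean log2 intensity of both arrays for 19938 named genes (grey) and the 10 pDC surface identity genes (red), with dashed lines at 2-fold. Ptprs (-1.16) and Cadm1 (-1.09) lie below the lower line, and Lag3 (-0.74) is the next of the set.

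The adhesion gene Cadm1 encodes a nectin-like protein that binds CRTAM on activated lymphocytes and marks pDCs as well as the cross-presenting class of conventional dendritic cells in the mouse. It had 248 intensity units on the Runx2-deficient array, against 526 on the wild-type array, 7.95 and 9.04 in log2. The difference was -1.09, or 2.12-fold lower, and 0.97% of filtered genes had one at or below it. The Runx2-deficient level is close to the filter level of 7.54 on that array. Adding 32 units to every intensity before taking log2 gave -0.997, which is just short of 2-fold. The other nectin-like genes Cadm3 and Cadm4 were below the filter on both arrays, at -0.11 and -0.05, as was Crtam at -0.17. Nectin4 and Pvr, 2 relatives above the filter, differed by 0.55 and 0.28.

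Cadm1 is shared with conventional dendritic cells, whose other genes went several ways. Of all named genes, 0.647% were at least 2-fold lower and 0.436% at least 2-fold higher. Of 15 conventional dendritic cell genes other than Cadm1, 1 was at least 2-fold lower and 3 were at least 2-fold higher. Their summed intensities were 26465 units in Runx2-deficient pDCs, against 25771 in wild-type pDCs. The highest intensities in both sums were those of Cst3, Clec9a, Flt3 and Sirpa, and Cst3 alone had 6608 and 7996 units. Xcr1 and Tlr3, which go with cross-presenting dendritic cells, did not reach the filter level on either array and differed by -0.04 and 0.05. Batf3, a factor of that lineage, was at 7.62 in Runx2-deficient pDCs, against 7.61 in wild-type pDCs. Clec9a, which mouse pDCs also express, was at 12.09 in Runx2-deficient pDCs, against 11.93 in wild-type pDCs. The gene at least 2-fold lower was Itgax, described above with the stained markers. The 3 higher ones were Cd8a, which also marks cross-presenting dendritic cells, the lymph node homing receptor gene Ccr7 and the inhibitory receptor gene Btla, with differences of 1.62, 1.35 and 1.06. Cd8a was at 11.27 in Runx2-deficient pDCs, against 9.65 in wild-type pDCs.

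Pacsin1, Tspan13 and Atp1b1 act at or in the membrane. Pacsin1 encodes a membrane-bending adaptor of endocytosis that mouse pDCs need for a full interferon response to TLR9 ligands. It had 1179 intensity units in Runx2-deficient pDCs, against 1733 in wild-type pDCs, a difference of -0.56 and 1.47-fold lower, and 4.46% of filtered genes had one at or below it. Its paralogue Pacsin2 was at 9.84 in Runx2-deficient pDCs, against 9.83 in wild-type pDCs. The endocytosis genes Dnm2, a dynamin, and Wasl, an actin regulator, differed by -0.17 and -0.01. Of 10 paralogues and partners 0 were 2-fold apart, and Ehd1, at -0.44, was the furthest from 0 among them.

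Tspan13, a tetraspanin gene, had 7395 intensity units in Runx2-deficient pDCs, against 8060 in wild-type pDCs, a difference of -0.12. It was nearly the same on both arrays, and 34.2% of filtered genes had a difference at or below its own. Other tetraspanin genes spread more widely. Of 22, Tspan2 was at least 2-fold lower, at 7.45 in Runx2-deficient pDCs, against 8.79 in wild-type pDCs. Cd81, a broadly expressed tetraspanin gene, was at least 2-fold higher, at 9.95 in Runx2-deficient pDCs, against 8.86 in wild-type pDCs. The broad leukocyte tetraspanin genes Cd53 and Cd37 differed by -0.02 and -0.11.

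Atp1b1 encodes the beta subunit that carries the sodium pump to the surface. It had 6407 intensity units on the Runx2-deficient array, against 9170 on the wild-type array, a difference of -0.52 and 1.43-fold lower, and 5.40% of filtered genes had one at or below it. The related subunit gene Atp1b3 and the pump regulator gene Fxyd5 were lower too, by less than 2-fold, at -0.29 and -0.37. Among the 6 measured relatives, 3 of them past the filter, 0 were 2-fold apart, 4 were below 0 and 2 were above. Of all 19938 named genes, 11299 were below 0.

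Ly6d encodes a lipid-anchored surface protein that appears on lymphoid progenitors on the way to B cells and pDCs. It had 5474 intensity units in Runx2-deficient pDCs, against 7510 in wild-type pDCs, a difference of -0.46 and 1.37-fold lower. Of the filtered genes, 7.02% had a difference at or below this. Ly6e, a broadly expressed relative, was at 13.52 in Runx2-deficient pDCs, against 13.61 in wild-type pDCs. Ly6g, the neutrophil marker, was at 7.08 in Runx2-deficient pDCs, against 8.91 in wild-type pDCs, and was the 1 of 11 relatives at least 2-fold lower. Ly6i was the 1 at least 2-fold higher, at 8.75 in Runx2-deficient pDCs, against 7.65 in wild-type pDCs. Genes of the LY6 family are similar in sequence, and cross-hybridisation between them was not tested.

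B cells are another source of Ly6d transcript. Of 11 other B cell genes, 1 was at least 2-fold lower (Blk), 1 was at least 2-fold higher (Cd22) and the median was -0.22. Their summed intensity was 4472 units in Runx2-deficient pDCs, against 4295 in wild-type pDCs. Ms4a1, Pax5 and Ebf1, which define the B lineage, were below the filter on both arrays. Cd79b and Cd79a, which encode the signalling pair of the B cell receptor, went opposite ways. Cd79b was at 11.23 in Runx2-deficient pDCs, against 10.97 in wild-type pDCs, and Cd79a at 8.06 in Runx2-deficient pDCs, against 8.64 in wild-type pDCs. Igll1, a gene of the surrogate light chain of B cell precursors, differed by -0.50. The highest intensities in the sum are those of Cd79b and, in Runx2-deficient pDCs, Cd22. The part of B cell RNA in the Ly6d difference was not tested.

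**Figure D4:**
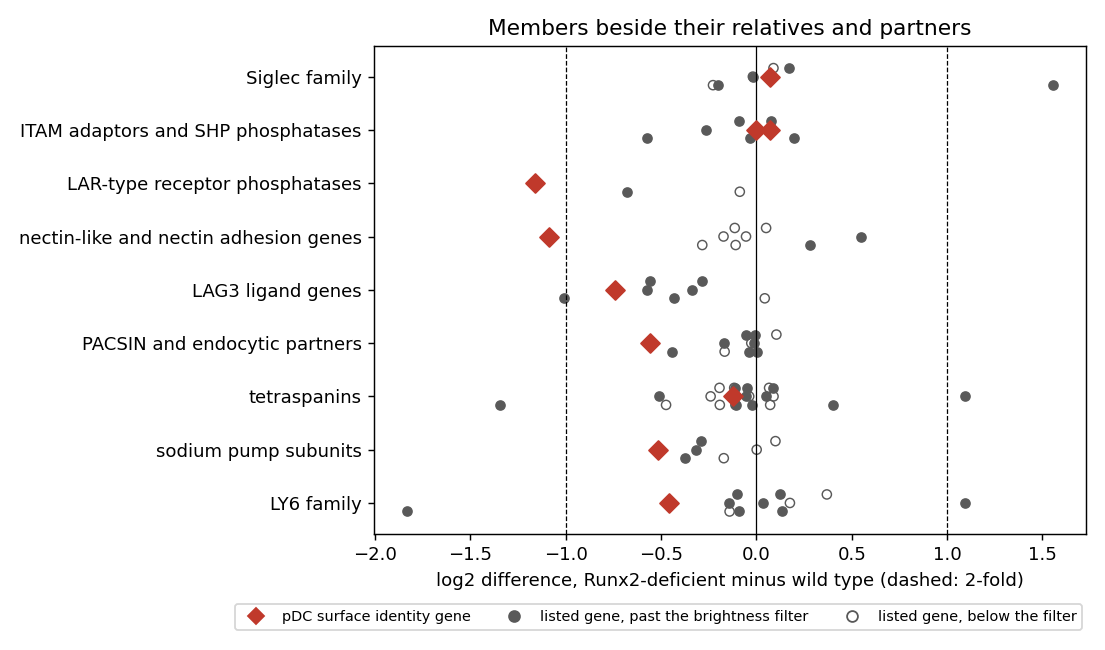
Log2 difference, Runx2-deficient minus wild type, of the pDC surface identity genes except Bst2 (red diamonds) beside their relatives, adaptors or ligands (circles). Circles are filled where past the brightness filter and open where below it. Dashed lines are at 2-fold. Ptprs, Cadm1, Lag3, Pacsin1, Atp1b1 and Ly6d lie at or near the low end of their rows. Some of these rows hold few filled circles, 1 of 2 beside Ptprs, 2 of 8 beside Cadm1 and 3 of 6 beside Atp1b1. Siglech, Lair1 and Tspan13 lie among their relatives.

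Over all relatives, adaptors and ligands together, 3 of 80 genes were at least 2-fold lower and 3 at least 2-fold higher, with a median of -0.07. Of all 19938 named genes, with no brightness filter, 0.647% were at least 2-fold lower and 0.436% at least 2-fold higher. The 3 lower ones were Tspan2, Ly6g and H2-Ab1, and the 3 higher ones were Cd22, Cd81 and Ly6i. The 10 surface identity genes and their relatives were chosen for different reasons, and no test was made between them.

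Other genes enriched in pDCs were set beside the surface genes. Of 39 measured, 37 of them past the filter, 0 were at least 2-fold lower and 1 was at least 2-fold higher. Among all filtered genes these shares were 1.17% and 0.793%. The higher gene was the lymphoid DNA polymerase gene Dntt, at 11.39 in Runx2-deficient pDCs, against 10.29 in wild-type pDCs. At 1.5-fold, 3 of the 39 were lower and 3 higher, while 3.86% and 3.02% of the filtered genes were. The median difference of the 39 was 0.02 (-0.02 over those past the filter). The lowest were the transcription factor genes Spib (-0.69) and Irf7 (-0.68) and the corepressor gene Cbfa2t3 (-0.61). The highest after Dntt were the Fc receptor-like gene Fcrla (0.84) and Cd4 (0.76). Tcf4, the gene of the factor that maintains pDC identity, differed by -0.04, and Irf8 by 0.03. Like Siglech and Lair1, Tcf4 and Irf8 were at nearly the same level on both arrays. The median of the 39 genes was near that of all named genes, and the median of the surface genes was -0.49.

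The genes nearest to Siglech, Ptprs and Cadm1 in the pair of log2 levels were listed as a description over 2 arrays, where closeness reflects probe brightness as much as expression. Nearest to Siglech were B2m, Tpt1 and Rpl28, with distances from 0.05 to 0.10 in log2 units and differences of 0.06, 0.06 and 0.01. Nearest to Ptprs were Man1c1, Rnf187 and Necap2, at distances from 0.13 to 0.19 and differences of -1.26, -1.35 and -0.91. Nearest to Cadm1 were Smtn, Gsap and Pkp4, at distances from 0.10 to 0.12 and differences of -0.95, -1.24 and -0.96.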

How the data were processed

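The data are 2 arrays of type Affymetrix Mouse Gene 1.0 ST, 1 from Runx2-deficient and 1 from wild-type bone marrow pDCs. The deposited values are linear intensities, 15.3 to 19577 units on the Runx2-deficient array and 15.5 to 20364 on the wild-type array. RMA is named in the submitters' processing notes as what the authors ran. It is a background correction, quantile normalisation and probe summary that usually ends on the log2 scale, while this table is linear. The software, the build and the set of arrays normalised together are, for these arrays, not given in the sources used here. Such summaries shrink differences of dim probe sets, and no detection call came with the values. The number of arrays limits the precision.

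The intensities were taken to log2 and subtracted. Of 35556 probe sets, 21789 have 1 gene symbol in the platform annotation, 1621 several and 12146 none; only the first kind was used. By gene identifier 21698 matched RefSeq, and 0 symbols changed. A gene's brightest probe set (highest mean log2 of both arrays) was kept. The filter levels were 7.54 on the Runx2-deficient array and 7.61 on the wild-type array. Genes were called at 2-fold, without a test. The members and lists were chosen with earlier results of these data known. Genes named are the 10 members, listed relatives past the filter or 2-fold apart, listed genes of pDCs and other cells furthest from 0 or defining them, and the 3 genes nearest in level to Siglech, Ptprs and Cadm1. Listed genes named below the filter, or for their share of a summed intensity, were added after their values were seen. Counting was tested on simulated data. Alternatives were median centring, a loess correction (span 0.3), the mean over probe sets, an offset of 32 units, a 1.5-fold threshold and the filter. The work ran in Python 3.11.15 with matplotlib 3.10.9, pandas 2.3.3, numpy 2.4.6 and statsmodels 0.14.6.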

Additional observations from a re-analysis of the deposited data

How the results depend on the processing

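Apart from Cadm1 and Lair1 below, each surface gene kept its direction and its side of 2-fold under median centring, the loess correction and the offset. Averaging probe sets could not move a surface gene, since each has 1, and the filter could not change their counts, since all 10 pass. At 1.5-fold, 3 surface genes were lower in place of 2. The Ptprs difference ran from -1.17 to -1.12 and the median of the surface genes from -0.49 to -0.45. With 32 units added to every intensity, Cadm1 differed by -0.997, which left 1 of the 10 surface genes, Ptprs, at least 2-fold lower; the offset by construction shrinks differences of dim probe sets. The sign of the Lair1 difference turned to 0.030 with median centring and to 0.0091 with the loess correction, both next to 0. Among other pDC-enriched genes, the 1.5-fold threshold gave 3 lower and 3 higher in place of 0 and 1, and the median moved to -0.016 over genes past the filter. No paired analysis was possible because each genotype has 1 array, and no array could be left out for the same reason. The planned reading of protein features was not run.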
